A study of Mus musculus with 28 samples.

Results

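The synaptic vesicle and neuronal cytoskeleton genes described here are 10 genes: Snap25, Syt1, Syn1, Syn2, Slc17a6, Slc17a7, Stmn2, Map2, Nefl and Nefm. They were chosen by symbol, each was read from the brightest probe set annotated to it alone, and its other probe sets, where it had any, served as a check. All 10 had a probe set of their own and passed the filter on dim genes, so that they were 10 of 13927 genes tested. Syn1, Nefm and Slc17a7 had 1 probe set each, so there was no such check for them. Nerve cells release transmitter by fusing synaptic vesicles with the membrane at the nerve ending, and the vesicles carry transporters that load them, synapsins that tether them and a calcium sensor that triggers their fusion. Long axons and dendrites are held up by microtubules, which proteins such as MAP2 and the stathmins bind, and by neurofilaments. Young neurons switch on growth genes such as Stmn2 early, whereas neurofilaments and most vesicle proteins build up as neurons mature and connect.

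The arrays covered 10 medulloblastomas, 6 gliomas and 12 normal brains of mice, in a study of Rictor, a subunit of the kinase complex mTORC2. Medulloblastoma is a tumour of the cerebellum that can arise from granule neuron precursors, and glioma is a tumour with features of glial cells. The Rictor-null mice were hGFAP-Cre::p53-/-; Rictor-/- and gave 5 medulloblastomas, 1 glioma and 5 normal brains. The Rictor-heterozygous mice were hGFAP-Cre::p53-/-; Rictor+/- and gave 2 medulloblastomas, 4 gliomas and 5 normal brains. The p53-null-only mice were hGFAP-Cre::p53-/- and gave 3 medulloblastomas, 1 glioma and 1 normal brain. The last normal brain, array Z2, came from a mouse labelled as normal with wild-type p53. Every tumour and every other brain therefore carried hGFAP-Cre, in which the promoter of human GFAP drives Cre in neural progenitors and glia, and lacked p53. Whether each array stands for an animal of its own is not in the labels. The p-values therefore speak of the spread among these samples alone, which may be technical. The labels name neither the region of the normal brains nor the share of cells with active Cre, and the tumour pieces were mainly, not wholly, tumour cells. Arrays are called by the code in their label, a letter and a number.

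The arrays had been scaled to 1 trimmed mean, and their median intensity ran from 18.8 to 27.8. Granule neuron precursor markers summed to 1525 to 5810 in medulloblastoma, 150 to 224 in glioma and 79.9 to 677 in normal brain. Oligodendrocyte precursor markers summed to 786 to 4118 in medulloblastoma, 8626 to 13420 in glioma and 514 to 2452 in normal brain. Some arrays stood apart. In normal brain, Gabra6, which encodes a GABA receptor subunit of mature granule neurons, was at 1740 in B2, at 4153 in C5 and at 4918 in Z2, against 1.1 to 116 in the other 9. Those 3 brains also had the lowest Tbr1, a transcription factor of cortical neurons, at 0.6 to 5.8, against 180 to 410 in the other 9. Gabra6 was 1638 in medulloblastoma B6 and 1324 in C6, and 8.1 to 187 in the other 8 medulloblastomas. In glioma it was 1014 in B7, 675 in B2 and 7.3 to 204 in the other 4. Rictor, the targeted gene, had an intensity of 68.8 to 236 in Rictor-null medulloblastomas, 261 to 277 in heterozygous ones and 223 to 273 in p53-null-only ones. It was 213 to 444 in Rictor-null normal brains and 251 to 389 in heterozygous ones, so the array did not separate these labels in normal brain. Where the probe set lies relative to the deleted part is not given here. Normal brain C2 had the highest Mki67 of the normal brains, at 275 against 2.8 to 53.7 in the others. It also had their highest Atoh1, a granule neuron precursor marker, at 176 against 1.4 to 21.1. Which cells these transcripts came from was not tested. The actin 3' to 5' ratio, which rises in degraded RNA, ran from 1.49 to 4.38 in the medulloblastomas, 1.73 to 2.78 in the gliomas and 1.99 to 6.21 in the normal brains.

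The first comparisons set each tumour against normal brain, and asked which of these genes the tumours still carried. In medulloblastoma 8 of the 10 genes were lower than in normal brain and none was higher, and the other two, Stmn2 and Slc17a6, did not pass the test. In glioma all 10 were lower. Differences are log2 differences of intensity plus 6.3 from limma over all 28 arrays, with Benjamini-Hochberg adjusted p-values over all genes. At an adjusted p under 0.05, the medulloblastoma comparison called 64.2% of all genes, 32% lower and 32.2% higher. The glioma comparison called 53.9%, 25.5% lower and 28.4% higher. The median difference of the 10 genes was −2.36 in medulloblastoma and −3.20 in glioma, against 0.01 and 0.05 for all genes. In 5 of the 10 every medulloblastoma lay below every normal brain, as did 7.96% of all genes. In 8 of the 10 every glioma lay below every normal brain, as did 9.23% of all genes. In bulk tissue, fewer cells of a type and less RNA per cell cannot be told apart. With only the arrays whose titles carry the prefix YZ, 8 genes were called in medulloblastoma and 9 in glioma, and with only the prefix YZ2, which holds 2 gliomas, 8 and 6.

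**Figure D1:**
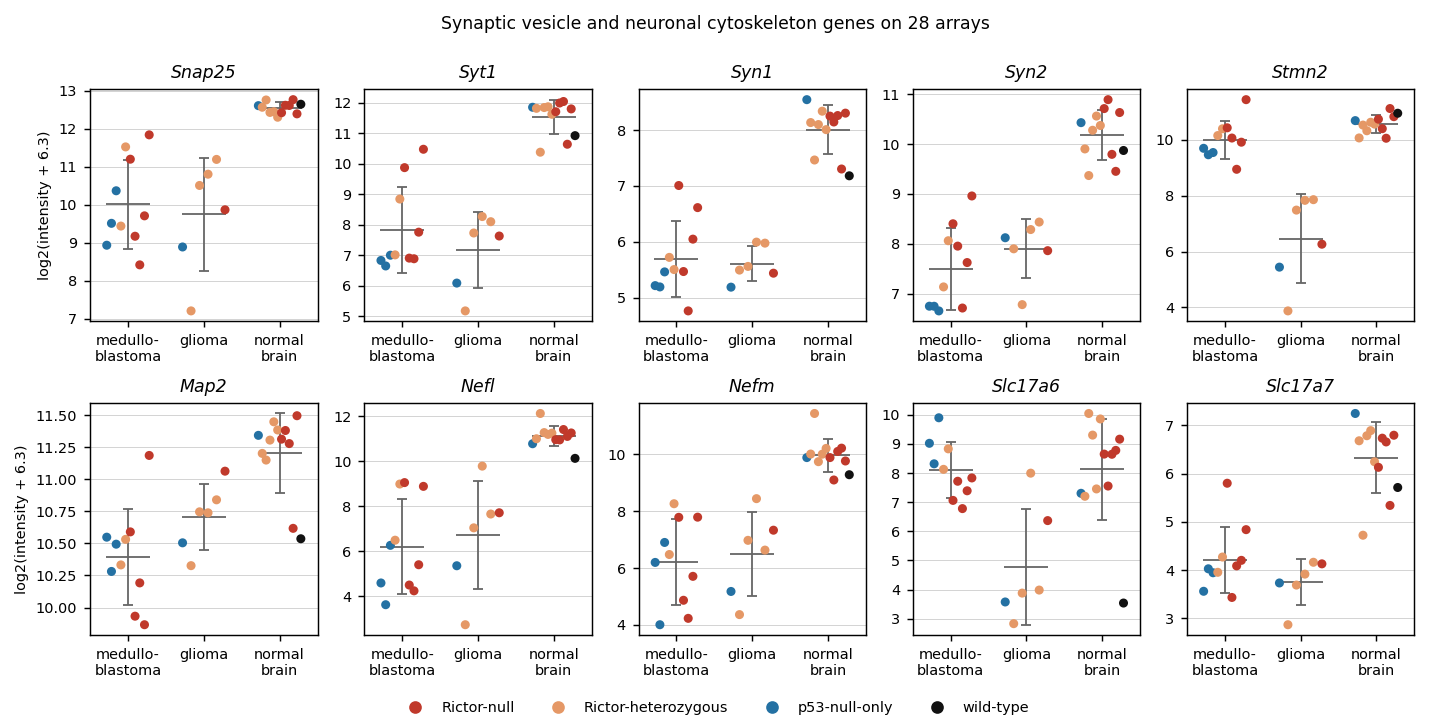
Level of the 10 genes on each of 28 arrays, as log2 of intensity plus 6.3 (vertical axis), by tissue (horizontal axis, medulloblastoma, glioma, normal brain) and genotype (colour); the long bar is the mean and the whiskers 1 SD. Stmn2 in medulloblastoma overlaps normal brain and lies above every glioma, whereas Snap25, Syn1, Syn2, Nefl and Nefm lie below every normal brain in both tumours.

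Snap25 (chromosome 2) encodes a SNARE protein of the nerve ending that pulls the vesicle onto the membrane. Its intensity ran from 336 in array C4 to 3646 in C6 in medulloblastoma, with a median of 776. In glioma it ran from 142 in B1 to 2328 in B7, median 1186, and in normal brain from 5029 to 6928, median 6123. Neither tumour overlapped normal brain, yet the highest medulloblastoma was 10.9 times the lowest. The log2 difference from normal brain was −2.40 in medulloblastoma (SE 0.42, adjusted p = 1.94e-05), a 5.26-fold lower level, and −2.78 in glioma (SE 0.48, adjusted p = 2.70e-05).

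Syt1 (chromosome 10) encodes synaptotagmin 1, the calcium sensor of fast transmitter release. It ran from 94.1 in A5 to 1423 in C6 in medulloblastoma (median 122), from 29.8 in B1 to 303 in B3 in glioma (median 199), and from 1331 in B2 to 4231 in C3 in normal brain (median 3598). Medulloblastoma C6 was the only tumour to reach the normal range, where it passed B2 alone. The difference was −3.61 in medulloblastoma (SE 0.44, adjusted p = 8.63e-08, 12.2-fold) and −4.29 in glioma (SE 0.51, adjusted p = 1.23e-07, 19.6-fold). Among normal brains the 3 rich in Gabra6 were lowest, at 1331, 1596 and 1942, against 3162 to 4231 in the other 9. The 3 dimmer probe sets of Syt1 were lower in both tumours too.

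Other genes of vesicle docking, fusion and recycling were also lower in both tumours. Of 31 tested genes of a list of synaptic vesicle and SNARE genes, all 31 were lower in medulloblastoma (median −2.16) and 30 were lower in glioma (median −2.52). The largest falls in medulloblastoma were in Dnm1, the dynamin that pinches off recycled vesicles (−3.92, SE 0.45), the synaptotagmin Syt7 (−3.80, SE 0.49), the release-site scaffold Rims1 (−3.21, SE 0.37) and Napb, which helps take spent SNARE complexes apart (−3.21, SE 0.34). Those in glioma were in the vesicle protein Synpr (−4.40, SE 0.57), Sv2b (−3.72, SE 0.51), Napb (−3.55, SE 0.39) and Dnm1 (−3.40, SE 0.51). Syt11, named after its value was seen, was the 1 gene not called in glioma, at −0.29 (SE 0.19), and was lower in medulloblastoma, at −1.43 (SE 0.17). The list's summed intensity was 4377 to 15690 in medulloblastoma, 5364 to 9720 in glioma and 26970 to 35540 in normal brain, with no overlap between tumour and brain.

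The synapsins coat synaptic vesicles and hold them in reserve. Syn1 (chromosome X) ran from 20.8 in C4 to 122 in C1 in medulloblastoma (median 38.5), from 30.1 to 57.4 in glioma (median 39.8) and from 139 to 368 in normal brain (median 276). All tumours were below all normal brains. The difference was −2.33 in medulloblastoma (SE 0.22, adjusted p = 1.66e-09) and −2.43 in glioma (SE 0.26, adjusted p = 2.40e-08). Syn2 (chromosome 6) ran from 94.7 to 492 in medulloblastoma (median 163), from 104 to 340 in glioma (median 253) and from 655 to 1889 in normal brain (median 1276). Here too no tumour reached the lowest normal brain, which was B2. The difference was −2.66 in medulloblastoma (SE 0.27, adjusted p = 5.23e-09) and −2.21 in glioma (SE 0.31, adjusted p = 1.83e-06). Of the 5 dimmer Syn2 probe sets, 3 were lower in both tumours and the 2 dimmest passed in neither.

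RefSeq (GRCm38.p6) promoters, each covering 250 bases before and 50 after a start, were at hand for 9 starts of 6 of the genes: Syn1, Syn2, Syt1, Map2, Slc17a6 and Slc17a7. Neuronal genes such as these are known targets of REST, a repressor that binds a long element called RE1, and the motifs were searched on both strands. The left part of that element, TTCAGCACC, stands in 122 of 32851 promoters (0.371%) and among the 9 only in that of Syn1. The cAMP response element TGACGTCA is in 1.79% of all promoters and among the 9 again only in that of Syn1. The promoter of Syn1 at chrX:20920869-20921168 on the minus strand is shown because it holds both, in capitals:
Syn1: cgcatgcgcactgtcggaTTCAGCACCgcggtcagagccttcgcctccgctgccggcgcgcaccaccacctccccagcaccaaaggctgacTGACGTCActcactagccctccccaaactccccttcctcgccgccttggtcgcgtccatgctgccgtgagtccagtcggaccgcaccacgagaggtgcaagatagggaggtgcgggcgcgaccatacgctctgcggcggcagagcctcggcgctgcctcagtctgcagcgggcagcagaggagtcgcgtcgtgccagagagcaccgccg
A match is a run of letters and not a shown site, and no match says only that these letters are not in the window. The genes that encode REST and its partners moved unevenly. In medulloblastoma the corepressors Rcor2 (2.04, SE 0.19), Rcor1 (1.5, SE 0.15) and Sin3a (0.74, SE 0.13) were higher than in normal brain and Rest itself did not pass (0.25, SE 0.21). In glioma Rest (0.99, SE 0.25) and Rcor1 (0.43, SE 0.18) were higher, while Rcor2 (−0.10, SE 0.22) and Sin3a (0.20, SE 0.15) did not pass.

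The vesicular glutamate transporters load glutamate into vesicles, Slc17a6 (VGLUT2) mainly in thalamic and brainstem neurons and in young neurons, and Slc17a7 (VGLUT1) mainly in cortical and mature cerebellar granule neurons. The promoters of both, on the plus strand of chromosome 7 at chr7:51621580-51621879 (the first of 2 starts of Slc17a6) and chr7:45163671-45163970 (Slc17a7), are set side by side because the levels of this pair parted in medulloblastoma. The capitals mark the GC box GGGCGG or its reverse complement CCGCCC, found in 35.7% of all promoters and in 5 of the 9:
Slc17a6: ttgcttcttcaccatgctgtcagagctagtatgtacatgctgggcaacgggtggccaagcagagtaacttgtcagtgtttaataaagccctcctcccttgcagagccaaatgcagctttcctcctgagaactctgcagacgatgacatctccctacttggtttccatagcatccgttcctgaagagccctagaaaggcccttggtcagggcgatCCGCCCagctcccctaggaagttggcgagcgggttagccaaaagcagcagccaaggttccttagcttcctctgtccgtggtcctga
Slc17a7: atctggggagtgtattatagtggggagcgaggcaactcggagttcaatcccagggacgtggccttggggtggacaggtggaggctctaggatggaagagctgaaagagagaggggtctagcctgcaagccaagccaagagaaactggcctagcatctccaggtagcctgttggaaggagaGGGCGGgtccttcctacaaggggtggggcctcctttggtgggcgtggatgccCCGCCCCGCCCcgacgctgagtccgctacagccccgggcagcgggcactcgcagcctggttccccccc
The first window is 53.7% G and C and holds 8 CpG pairs, and the second 63.7% and 13, against a median of 52.7% G and C over all promoters. Neither holds TTCAGCACC or TGACGTCA on either strand. The window of the second Slc17a6 start, not shown, is 43.0% G and C with 3 CpG pairs and no GC box. The part of these letters in the levels of the pair was not tested.

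Slc17a6 ran from 104 in C4 to 949 in A6 in medulloblastoma, with a median of 248. In glioma it was 249 in B3, 76.3 in C3 and 0.8 to 9.5 in the other 4. In normal brain it ran from 5.3 in Z2, the wild type, to 1052 in B2, with a median of 395. With all genotypes pooled, medulloblastoma and normal brain overlapped almost wholly, and among the gliomas B3 alone lay well inside the range of the normal brains other than Z2. By genotype the direction was not the same. The mean log2 level was 7.357 in Rictor-null medulloblastomas against 8.56 in Rictor-null brains. It was 8.481 against 8.774 in Rictor-heterozygous samples, and 9.081 against 7.306 in p53-null-only ones, with 1 such brain. Tumour against brain within a genotype was not tested, and the fit gives a single difference over all genotypes. The difference from normal brain was −0.41 in medulloblastoma (SE 0.55, 95% interval −1.54 to 0.71, adjusted p = 0.526) and −3.87 in glioma (SE 0.63, adjusted p = 1.13e-05, 14.6-fold). Without glioma B3 the glioma difference was −4.48, and with the prefix YZ alone the medulloblastoma one was −1.52 (adjusted p = 0.183). The second Slc17a6 probe set gave −0.53 (SE 0.50) and −3.15 (SE 0.57). Z2, which has a term of its own in the fit and adds nothing to these differences, had Gabra6 at 4918 and Slc17a6 at 5.3, whereas B2 had both high.

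Slc17a7 was dim everywhere, at 4.5 to 49.4 in medulloblastoma (median 10.4), 1.0 to 11.6 in glioma (median 7.9) and 20.1 to 145 in normal brain (median 95.4). Medulloblastomas C1, at 49.4, and C6, at 22.3, overlapped the normal brains B2, C5 and Z2, at 20.1, 34.2 and 46.1, which were the 3 lowest, and every glioma lay below all brains. The difference was −2.20 in medulloblastoma (SE 0.30, adjusted p = 4.36e-07) and −2.56 in glioma (SE 0.34, adjusted p = 7.20e-07). These values lie near the bottom of the scale, where a log2 difference understates the change. Of the other vesicular transporters, Slc32a1, which loads GABA and glycine, was lower by −4.28 in medulloblastoma (SE 0.47) and −3.83 in glioma (SE 0.54), and Slc18a2, which loads monoamines, by −0.88 (SE 0.38) and −1.24 (SE 0.44). These were both of the 2 genes tested in that list.

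**Figure D2:**
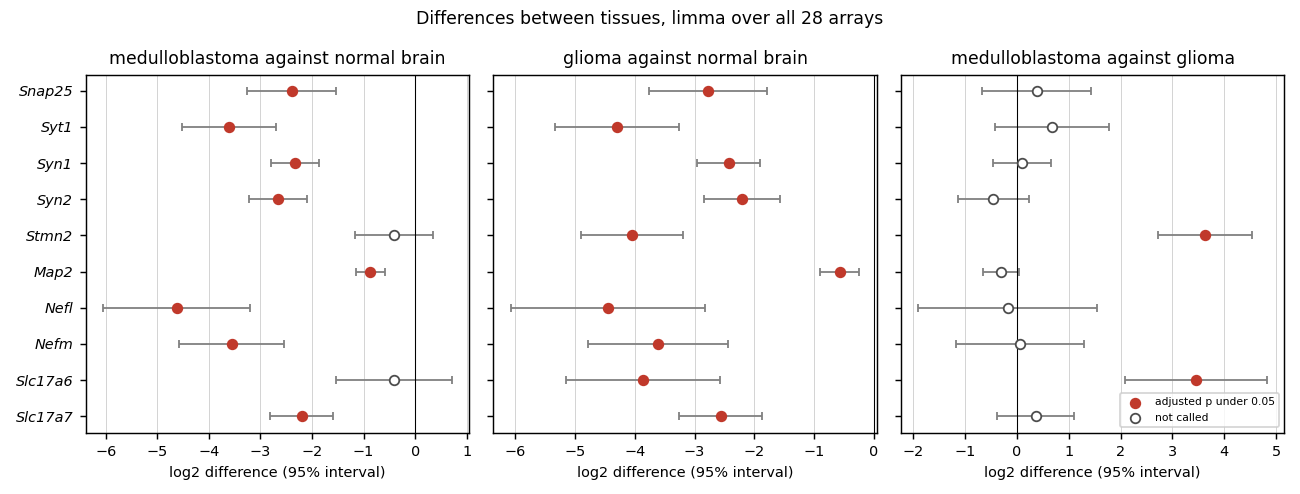
Log2 difference of each of the 10 genes (horizontal axis; points with 95% intervals, filled where the adjusted p was under 0.05) in each tumour against normal brain and, in the third panel, medulloblastoma against glioma. Slc17a6 and Stmn2 are at −0.41 in the first panel, −3.87 and −4.04 in the second and 3.46 and 3.63 in the third, where no other gene was called.

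Stmn2 (chromosome 3) encodes stathmin 2, a tubulin-binding protein of growing axons. Its intensity ran from 486 in C4 to 2759 in C6 in medulloblastoma (median 1009), from 8.4 in B1 to 225 in B7 in glioma (median 122), and from 1056 to 2212 in normal brain (median 1538). Of the 10 medulloblastomas 5 lay at or above the lowest normal brain, and C6 lay above the highest, while no glioma came near. The difference was −0.41 in medulloblastoma (SE 0.36, 95% interval −1.16 to 0.34, adjusted p = 0.333) and −4.04 in glioma (SE 0.42, adjusted p = 1.73e-08, 16.5-fold). The second Stmn2 probe set gave −0.68 (SE 0.36, adjusted p = 0.104) and −3.74 (SE 0.41, adjusted p = 4.93e-08).

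Map2 (chromosome 1) encodes the microtubule-associated protein of dendrites and neuronal cell bodies, and of the 10 genes it differed least from normal brain in glioma. It ran from 927 to 2322 in medulloblastoma (median 1359), from 1278 to 2132 in glioma (median 1706) and from 1478 to 2879 in normal brain (median 2529). Both tumours overlapped normal brain, whose 2 lowest arrays were Z2 and C5, both rich in Gabra6. The difference was −0.87 in medulloblastoma (SE 0.14, adjusted p = 5.62e-06) and −0.57 in glioma (SE 0.16, adjusted p = 0.00395). The glioma call was lost with either title prefix alone (adjusted p = 0.109 in YZ and 0.146 in YZ2). The probe sets of Map2 disagreed: the second, dimmer one was higher in medulloblastoma (0.59, SE 0.25, adjusted p = 0.0471) and at 0.26 in glioma (SE 0.29, adjusted p = 0.473). The other two were below 0 without passing, at −0.13 (SE 0.32) and −0.26 (SE 0.39) in medulloblastoma and −0.51 (SE 0.37) and −0.27 (SE 0.44) in glioma, so the brightest alone was called lower.

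Nefl and Nefm encode the light and medium neurofilament subunits, which fill mature axons, and are neighbours on chromosome 14. Nefl ran from 6.1 in A5 to 524 in C1 in medulloblastoma (median 53.4), from 0.4 in B1 to 874 in B3 in glioma (median 161), and from 1112 in Z2 to 4441 in B2 in normal brain (median 2259). The ranges did not overlap between tumour and brain, although both tumours varied widely. The difference of −4.62 in medulloblastoma (SE 0.69, adjusted p = 1.99e-06, 24.7-fold) was the 12th lowest of all 13927 genes, and that of −4.45 in glioma (SE 0.79, adjusted p = 3.65e-05, 21.9-fold) the 16th lowest. Without glioma B1, which was at 0.4, the glioma difference was −3.62. Its second probe set gave −4.87 (SE 0.66) and −4.49 (SE 0.76).

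Nefm ran from 9.8 in A5 to 300 in B6 in medulloblastoma (median 74.9), from 14.3 in B1 to 341 in B3 in glioma (median 106), and from 540 in C2 to 2755 in B2 in normal brain (median 978). Again no tumour reached the lowest normal brain. The difference was −3.55 in medulloblastoma (SE 0.50, adjusted p = 7.10e-07) and −3.62 in glioma (SE 0.57, adjusted p = 7.53e-06). Nefh, the heavy subunit, was lower by −3.44 in medulloblastoma (SE 0.48) and −2.56 in glioma (SE 0.55). Ina, the internexin filament protein that appears in neurons before the neurofilament subunits, was lower by −0.87 (SE 0.27) and −2.49 (SE 0.31). Prph did not pass in either tumour, the third gene of that list.

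Other genes of the neuronal cytoskeleton went both ways. Of 10 microtubule-associated and stathmin genes 7 were lower and 3 higher in medulloblastoma, and 7 lower, 1 higher and 2 not called in glioma. The microtubule-associated Map1a (−2.64, SE 0.24) and Mapt, which is tau (−2.50, SE 0.32), fell in medulloblastoma, whereas Dcx, the doublecortin of migrating young neurons (3.09, SE 0.49), and Dclk1, its relative (1.82, SE 0.16), rose. The third gene to rise was Stmn1, at 0.45 (SE 0.13), named after its value was seen. In glioma Map1b (−2.25, SE 0.33), Stmn4 (−2.14, SE 0.34) and Map1a (−1.65, SE 0.28) fell, and Dclk1 (1.70, SE 0.18) was the 1 that rose.

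Of 19 tubulin, motor and growth cone genes 10 were lower, 5 higher and 4 not called in medulloblastoma, and 12 lower, 3 higher and 4 not called in glioma. The tubulin Tuba4a was lower in medulloblastoma (−3.33, SE 0.44) and in glioma (−2.81, SE 0.51). Kif5a, a kinesin that carries cargo along axons, was lower too (−3.25, SE 0.30, and −3.13, SE 0.34). Tubb2b, a tubulin of the developing brain, rose in both (1.6, SE 0.15, and 1.94, SE 0.17), as did Tuba1a (0.40 and 0.54) and Dpysl3 (0.70 and 1.67), and Crmp1 (1.11) and Dpysl5 (0.55) rose in medulloblastoma; these last 4 were named after their values were seen.

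Many markers of neurons, glia and dividing cells moved with the tissues as well, but not all did. In each tumour 3 of 4 endothelial and 3 of 4 Purkinje cell markers were not called. Microglia markers were not called in 2 of 6 cases in medulloblastoma and 5 of 6 in glioma. Astrocyte markers were lower in 5 of 6 cases in medulloblastoma and 3 of 6 in glioma, and choroid plexus markers in 2 of 4 and 4 of 4. Forebrain neuron markers were lower in 7 of 8 cases in medulloblastoma and 8 of 8 in glioma, and summed to 151 to 1638, 47.8 to 566 and, in normal brain, 949 to 6436. Inhibitory neuron markers were lower in 5 of 6 cases in each tumour and summed to 66.5 to 3030 in medulloblastoma, 391 to 1419 in glioma and 4797 to 7969 in normal brain. Granule neuron markers were higher in 5 of 8 cases and lower in none in medulloblastoma, and summed to 6470 to 12600 there, 567 to 5010 in glioma and 825 to 19740 in normal brain. Proliferation markers were higher in 5 of 5 cases in both tumours, at 2516 to 7661 in medulloblastoma, 970 to 5318 in glioma and 39.1 to 931 in normal brain. Oligodendrocyte markers were lower in 5 of 5 cases in both, at 190 to 3416, 834 to 12430 and, in normal brain, 4645 to 15100. The part of these cell types in the differences of the 10 genes was not tested. Normal brains B2, C5 and Z2 had the lowest Tbr1, Camk2a, Cck and Neurod6 of the normal brains. Of the same forebrain list, Neurod2 was highest in C5 and Z2, and Lamp5 was highest in B2. Without B2, C5 and Z2, 8 genes were called in medulloblastoma and 10 in glioma, as with them.

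Medulloblastoma was next set against glioma, to ask which of the genes separated the tumours. Stmn2 and Slc17a6 were higher in medulloblastoma and none of the 10 was lower, whereas 28.4% of all genes were called, 13.6% higher and 14.8% lower. Stmn2 was 486 to 2759 in medulloblastoma and 8.4 to 225 in glioma with no overlap, as held for 2.64% of all genes with higher medulloblastomas. Its log2 difference was 3.63 (SE 0.44, adjusted p = 6.13e-07), a 12.4-fold higher level. For Slc17a6 the difference was 3.46 (SE 0.67, adjusted p = 0.000272), 11-fold, and glioma B3, at 249, lay above 5 medulloblastomas. The second probe sets gave 3.06 for Stmn2 (SE 0.44) and 2.62 for Slc17a6 (SE 0.61), both called. With the 2 gliomas of prefix YZ2 alone the Slc17a6 call was lost (2.55, adjusted p = 0.156).

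For the other 8 genes the difference between the tumours did not pass, which does not show that they were alike. Its 95% interval was −0.46 to 0.65 for Syn1, −0.67 to 1.43 for Snap25, −0.42 to 1.78 for Syt1, −1.13 to 0.23 for Syn2 and −0.38 to 1.11 for Slc17a7. It was −0.65 to 0.05 for Map2, −1.90 to 1.55 for Nefl and −1.18 to 1.30 for Nefm, so that the neurofilament genes were the least precisely placed. One of the dimmer Syt1 probe sets was called higher in medulloblastoma (1.08, SE 0.40, adjusted p = 0.0458) and the other 3 were not. Of the 10 microtubule-associated and stathmin genes 3 were higher in medulloblastoma than in glioma and 3 lower, with Dcx (2.26, SE 0.59) the furthest up and Mapt (−1.63, SE 0.39) the furthest down. Of the 19 tubulin, motor and growth cone genes 4 were higher and 4 lower, with Crmp1 (2.59, SE 0.26) and Tubb2a (−1.07, SE 0.30) at the ends. Ina was higher (1.62, SE 0.33), the 1 called of its list of 3. Of the 31 vesicle genes 3 were higher in medulloblastoma, 1 was lower and 27 did not pass.

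Single tumours of 1 type differed widely in these genes. Medulloblastomas C6, C1 and B6 were each among the 3 highest of their type for 9, 9 and 8 of the 10 genes, and C4 was among the 3 lowest for 9. How often these arrays ranked so over all genes was not worked out, and the 10 genes are not independent. C6 also differed in granule neuron precursor markers, being lowest of the medulloblastomas for 3 of 5 and highest for 1. The 3 were Atoh1, at 37.5 against at least 493.3 in the other 9, Gli1, at 23.4 against 95.4 to 321, and Mycn, at 1178 against 1346 to 4134. The part of this in its high values was not tested. C6 had 3646 for Snap25, 1423 for Syt1, 492 for Syn2 and 2759 for Stmn2, and C4 had 336, 112, 98.8 and 486. C1 had 2337 for Snap25, 935 for Syt1, 524 for Nefl and 49.4 for Slc17a7, the highest Syn1, Nefl and Slc17a7 of the medulloblastomas. B6 had 2926 for Snap25, 454 for Syt1, 502 for Nefl and 300 for Nefm. Slc17a6 did not go with the rest: its highest medulloblastomas were A6 (949), A3 (514) and B6 (450), and C1 had 127.

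The 3 high tumours differed in markers of granule, Purkinje, forebrain and inhibitory neurons. C6 and B6 had Gabra6 at 1324 and 1638 and the Purkinje cell marker Pcp2 at 869 and 849, whereas C1 had 10.5 and 5.5. Of 8 forebrain neuron markers, C1 had the highest level of the medulloblastomas for 4, C6 for 3 and A6 for 1. The 4 of C1 were Camk2a (696), Cck (467), Tbr1 (43.1) and Lamp5 (123), against at most 204, 233, 21.9 and 110 in the others. The 3 of C6 were Neurod2 (187, against 113 in C1), Drd1 (92.3, against 32.5) and Ppp1r1b (38, against 27.9). In normal brain Neurod2 was highest in C5 (319.5) and Z2 (276.1), which are rich in Gabra6. It was 132.7 in B2 and 95.9 to 223.7 in the others, so it did not follow Tbr1 there. Neurod6 was highest in A6 (427), with 137 in C1 and 239 in C6. Gad1, of inhibitory neurons, was 1991 in C6, 1063 in B6 and 410 in C1, against 15.9 to 143 in the other 7. Which cells these transcripts came from, and their part in the high values, was not tested.

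Among the gliomas B1 was lowest for 8 of the 10 genes, with 142 for Snap25, 29.8 for Syt1, 8.4 for Stmn2 and 0.4 for Nefl. B3 and B7 were each among the 3 highest for 9. B3 had 874 for Nefl, 341 for Nefm and 249 for Slc17a6, against at most 203, 155 and 76.3 in the other gliomas, and Mobp, a myelin gene, at 3422 against 12 to 462. B7 had 2328 for Snap25 and 225 for Stmn2, with Gabra6 at 1014 and Pcp2 at 591. Without medulloblastomas B6 and C6 and gliomas B2 and B7 together, the counts of called genes were 8 in medulloblastoma against normal brain, 10 in glioma against normal brain and 2 between the tumours.

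**Figure D3:**
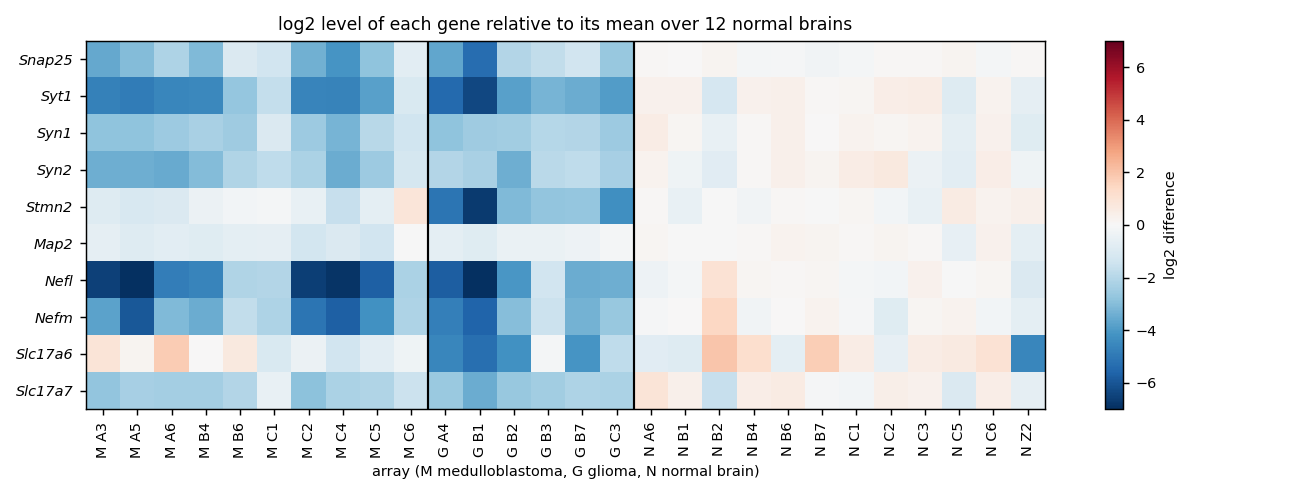
Log2 level of each of the 10 genes (rows) on each array (columns; M medulloblastoma, G glioma, N normal brain) minus its mean over the 12 normal brains, blue lower and red higher. Medulloblastomas C1 and C6 are pale for most genes, glioma B1 is dark for most, and the Slc17a6 and Stmn2 rows are pale in medulloblastoma and dark in most gliomas.

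The normal brains were not all alike for these genes. B2, C5 and Z2, with high Gabra6, had the 3 lowest Syt1, Syn1 and Slc17a7 values, at 1331, 1596 and 1942 for Syt1 and 170, 152 and 139 for Syn1, while Snap25 was higher in them than in the other 9 brains, at 6886, 6928 and 6373. Nefl was 4441 in B2 and 1112 in Z2, its highest and lowest values, against 1748 to 2708 in the other 10. Nefm was 2755 in B2 and 540 to 1181 in the others. B2 and Z2 also had the highest actin 3' to 5' ratios of the 28 arrays, at 6.01 and 6.21, against 3.45 in C5 and 1.99 to 4.95 in the other 9 brains. The part of RNA quality in these values was not tested. Since the labels do not give the region of these brains, region and sample cannot be told apart.

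How the genes moved together from array to array was described after each tissue's mean was taken off. Over 45 pairs and 28 arrays, 27 pairs passed by both Pearson's r and Spearman's rho in permutations within tissues, adjusted over the 45. The share of all gene pairs that would pass was not worked out, so the 27 are not shown to be particular to these genes. Nefl and Nefm had r = 0.93 and rho = 0.894 (permutation p = 1e-05 each, the smallest that 100000 permutations can give, adjusted p = 0.000112 and 0.00015), and r = 0.913 without the 2 arrays farthest from the median. Within tissues it was 0.938 in medulloblastoma, 0.97 in glioma and 0.807 in normal brain.

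Snap25 and Syt1 had r = 0.879 in medulloblastoma and 0.973 in glioma but −0.618 in normal brain, where the brains rich in Gabra6 stand apart, so that the value over all arrays (r = 0.82, rho = 0.741, permutation adjusted p = 0.00036 and 0.0029, and r = 0.734 without the 2 farthest arrays) mixes both. Without the arrays rich in Gabra6, over 21 arrays, r was 0.867. The values were still centred on the means of all 28 arrays, so differences between tissues can enter this r. Slc17a6 and Slc17a7, which load the same transmitter, had r = −0.0561 and rho = −0.11 (permutation adjusted p = 0.789 and 0.644). Within tissues their r was −0.418 in medulloblastoma, 0.555 in glioma and −0.116 in normal brain. Arrays share their scaling and tissue content, so these values describe the arrays and not a link between genes.

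**Figure D4:**
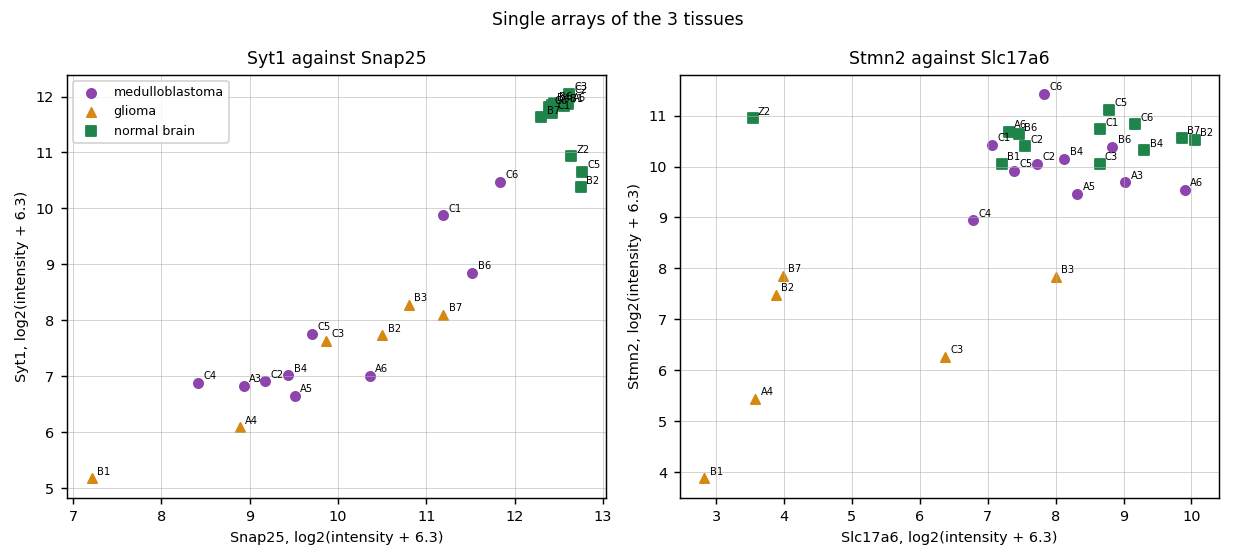
Left, Syt1 against Snap25, and right, Stmn2 against Slc17a6, both as log2 of intensity plus 6.3, with 1 point per array named by its code, in medulloblastoma (circles), glioma (triangles) and normal brain (squares). The normal brains B2, C5 and Z2 lie apart in Syt1 on the left, and glioma B3 is the glioma with the highest Slc17a6 on the right.

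Over all genes, those most like each of the 10 in this measure were as follows, given as r over 28 arrays with no test. Snap25 was most like Chgb (0.95) and Slc12a5 (0.936), and Syt1 most like Rasgef1a (0.939) and Atp6v1g2 (0.919). For Syn1 they were Dmtn (0.912) and Slc6a7 (0.873), and for Syn2 Pnck (0.81) and Rab3a (0.8). Stmn2 was most like Rbfox3 (0.873) and Celf4 (0.87), and Map2 most like Gfra1 (0.85) and Fam217b (0.821). Cplx1, which encodes the fusion clamp complexin 1, was most like both Nefl (0.919) and Nefm (0.865), followed by Ckmt1 (0.918) and Lgi2 (0.853). Slc17a6 had the weakest likeness, to Entpd3 (0.756) and Col11a1 (0.716), while Slc17a7 was most like Hpcal4 (0.878) and Fam131a (0.863).

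The last comparisons asked whether loss of Rictor went with a different level of these genes. None of the 10 was called by limma in Rictor-null medulloblastomas against p53-null-only ones, where 0.00718% of all genes were, and 2 had an unadjusted p under 0.05. None was called between Rictor-null and Rictor-heterozygous medulloblastomas, where 0.00718% of all genes were too, and 1 had an unadjusted p under 0.05. None was called between Rictor-null and Rictor-heterozygous normal brains, where 0% of all genes were, and 0 had an unadjusted p under 0.05. The shares of all genes are those of adjusted calls. The share at an unadjusted p under 0.05 is not given here, so the counts of 2 and 1 have no background. The largest difference of the 10 in normal brain was that of Nefm, −0.47 (SE 0.31, adjusted p = 0.9997).

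Slc17a6 was one of the 2 genes at an unadjusted p under 0.05 against p53-null-only medulloblastomas. It was 104, 127, 162, 205 and 222 in Rictor-null medulloblastomas, 274 and 450 in Rictor-heterozygous ones and 313, 514 and 949 in p53-null-only ones. The Rictor-null values lay below all other medulloblastomas on this probe set, as held for 0.151% of all genes. The log2 difference was −1.72 against p53-null-only (SE 0.37, adjusted p = 0.57) and −1.12 against heterozygous tumours (SE 0.43, adjusted p = 0.9999). On the second probe set the Rictor-null tumours had 34.0 to 129, below the heterozygous 165 and 241 but overlapping the p53-null-only 78.3, 220 and 262.

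Syn2 was the other. It was 98.8, 191, 242, 332 and 492 in Rictor-null medulloblastomas, 135 and 261 in Rictor-heterozygous ones and 94.7, 101 and 102 in p53-null-only ones. The Rictor-null tumour C4 lay among the p53-null-only tumours and the other 4 above them. The difference was 1.21 against p53-null-only (SE 0.44, adjusted p = 0.981) and 0.33 against heterozygous tumours (SE 0.50, adjusted p = 0.9999). C1 and C6, each among the 3 highest medulloblastomas for 9 of the 10 genes, are both Rictor-null. Whether the difference between Rictor-null and heterozygous samples differed between medulloblastoma and normal brain was tested as an interaction, which called 0 of 13927 genes and had 264 at an unadjusted p under 0.05, none of them among the 10.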

How the data were processed

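Total RNA of medulloblastomas, gliomas and normal brains was measured on Affymetrix Mouse 430 2.0 arrays. The authors deposited 1 linear intensity for each probe set on each array, made with MAS5 and GCOS per the submitters' processing notes, of unstated version. The values show that each array had been scaled to the same trimmed mean, which acts on all genes of an array alike. The number of arrays, 28, limits the precision. All value columns matched a sample, with 0 left over, and 0 pairs of columns were identical. Of 45101 probe sets, 34945 were annotated to 1 gene symbol, 932 to several and 9224, controls included, to none. The brightest single-symbol probe set stood for each of 18193 genes, and the 13927 genes whose mean log2 value passed 3.89, the 30th percentile, were tested.

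Intensities were raised by a pseudocount of 6.3 (the table's 25th percentile) and taken to log2, so that log2 differences understate the change of dim genes. The tissue comparisons came from limma (lmFit, eBayes with trend) over 28 arrays with terms for tissue and for genotype, the wild type being a genotype apart, and the Rictor comparisons from fits of the medulloblastomas and of the normal brains. The interaction came from a fit of group means. Calls were made at 0.05 after Benjamini-Hochberg adjustment, in two-sided tests, and probe sets were adjusted over all 25992 that passed the filter. The fits were tested on simulated data. Correlations used values centred by tissue and 100000 two-sided permutations within tissues. The tools were limma 3.58.1 in R 4.3.3 and, in Python 3.11.15, pandas 2.3.3, numpy 2.4.6 and matplotlib 3.10.9.

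The members and lists were chosen with earlier results of these data known. All 10 genes were named, and of each pathway list up to 4 called genes with the largest difference per tumour. Of each marker list the summed level or the count of called markers was given, with single markers that moved with a gene. For each gene the 2 most like it were named. Genes of the lists without a probe set of their own in these data were not analysed here, and Slc18a3 and Tie1 fell below the filter. Title codes recur across tissues, and same-coded arrays deviated together at r = −0.073 to 0.352 for medulloblastoma with normal brain (5 of 7 pairs over 0.1). For glioma with normal brain r was −0.118 to 0.239 (2 of 4). The brain most like a tumour was its same-coded one in 3 of the 7 medulloblastoma pairs and 1 of the 4 glioma pairs. The medulloblastoma pairs coded A6, B4 and C1 matched in code but not in title prefix, and A6 was 1 of those 3. The labels do not say whether a code marks 1 animal, and these values do not settle it. The main fits did not take codes as pairs, so arrays that share an animal would not be independent in them.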

Additional observations from a re-analysis of the deposited data

Results flagged for a closer look

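In 60 groups of 4 to 10 arrays, 9 values lay far from the rest of their group, by the gap to the nearest value as a share of the group's range, against a 95% limit. Chance alone marks about 1 in 20 groups. The 10 genes share arrays, so these marks are not independent, and 6 of the 9 lie in normal brains B2 and C5, whose Gabra6 was high. The part of brain region in these values was not tested.

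In Rictor-null normal brain, array C5 was low for Syt1 (1596), Syn1 (151.7) and Map2 (1564). In Rictor-heterozygous normal brain, array B2 was low for Syt1 (1331) and high for Nefl (4441) and Nefm (2755). Among the 6 gliomas, B2 was low for Syn2 (103.9) and B1 was low for Slc17a7 (1.0). Among the 4 Rictor-heterozygous gliomas, B1 was low for Stmn2 (8.4).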

How the results depend on the processing

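The count of called genes was 8 in medulloblastoma against normal brain and 10 in glioma against normal brain without any 1 array, and 7 to 8 and 6 to 10 under the other alternatives. It fell to 6 in glioma against normal brain, and to 1 in medulloblastoma against glioma, with the arrays of title prefix YZ2 alone, which hold 2 gliomas. There the glioma falls of Snap25 (−1.56), Map2 (−0.58), Nefl (−2.94) and Slc17a6 (−2.60) were no longer called. Genes called overall were 5439 in medulloblastoma against normal brain and 1873 between the tumours with YZ alone, and 3372 in glioma against normal brain and 1119 between the tumours with YZ2 alone. With a replicate block for the title code, whatever its prefix, in place of genotype, 8 and 10 genes were called, as without it. Over all genes 8127 and 5731 were called. Medulloblastoma and glioma share no codes. The second brightest probe set turned Map2 round (0.59 in medulloblastoma, 0.26 in glioma, 0.32 between the tumours). Between the tumours, uncalled values changed sign: Nefm was −0.26 without the genotype term, −0.03 with the prefix as a term, −0.28 in YZ, −0.37 in YZ2, −0.04 with the actin ratio, −0.38 without the 4 tumours rich in Gabra6 and −0.46 without these and normal brains B2, C2, C5 and Z2, the last chosen after seeing the data. There Syn2 was called lower in medulloblastoma (−0.82, adjusted p = 0.0319). In YZ2 alone Snap25 was −0.70, Syt1 −0.22, Syn1 −0.36 and Slc17a7 −0.03. Leaving out 1 array at a time moved Nefm between −0.35 and 0.41, Nefl between −0.91 and 0.29, Snap25 between −0.07 and 0.61 and Syn1 between −0.02 and 0.20, and it moved Syn2 in Rictor-null against heterozygous medulloblastomas between −0.13 and 0.79. Without the 4 tumours rich in Gabra6, Nefl was −5.39 in medulloblastoma and Stmn2 −4.63 in glioma against normal brain, and without these and the 4 brains Syt1 was −4.42 in medulloblastoma and −4.93 in glioma and Slc17a6 −3.28 in glioma. Without medulloblastoma C6, Map2 passed as lower in medulloblastoma than in glioma (−0.38, adjusted p = 0.0494). In no Rictor comparison was any of the 10 called under any alternative. The causes were not tested. Quantile normalization or median centring moved the median of all genes by less than 0.1. With 2 heterozygous medulloblastomas, and 1 Rictor-null glioma that was not compared, small effects of Rictor cannot be seen here. In medulloblastoma, larger effects on some of the genes can be missed too. For Rictor-null against heterozygous, the confidence interval was −4.27 to 1.63 for Nefl and −3.57 to 0.99 for Nefm. For Rictor-null against p53-null-only, it was −0.99 to 4.16 for Nefl and −0.20 to 3.31 for Syt1. For Map2 these intervals were narrower, at −0.79 to 0.64 and −0.71 to 0.54.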
